A study of Homo sapiens with 16 samples.

Results

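Of the 16 arrays in the series, 4 were compared here: the arrays of the dexamethasone (DEX) set titled replicate 2, of which 2 were titled siFoxA1 and 2 parental. They were chosen by their titles and by FOXA1, which was lower on the replicate 2 array than on the replicate 1 array of the same title in all 4 title groups. The cells were LNCaP-1F5, a clone of the human LNCaP prostate cancer line into which a rat glucocorticoid receptor was introduced. By the labels, the siFoxA1 cells were depleted of FOXA1 with a pool of siRNAs against its mRNA, while for parental cells no control siRNA is named. Both kinds of cell were kept for 3 days in charcoal-stripped medium, which is low in steroids, and then received vehicle or 100 nM DEX, a synthetic glucocorticoid, for 24 hours. Each of the 4 titles (vehicle siFoxA1, DEX siFoxA1, vehicle parental, DEX parental) has 1 array of replicate 2, and the vehicle-titled and DEX-titled array of each siRNA title were pooled. The series calls its replicates biological duplicates, so each title is 1 sample here. RNA was measured on Illumina HumanHT-12 v4 bead arrays, and 15933 to 16996 of the probes were detected on each of the 4 arrays.

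FOXA1 is a forkhead pioneer factor that opens compacted chromatin and so lets steroid receptors reach their binding sites in prostate epithelium. The glucocorticoid receptor, once it has bound its ligand, moves to the nucleus, binds paired half-sites in DNA and switches on genes such as FKBP5, SGK1 and TSC22D3. Many of the same sites can also be bound by the related receptor for androgens, so a set of genes responds to either hormone in LNCaP cells.

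FOXA1 itself, which chose the arrays, was lower on the arrays titled siFoxA1 and is given as a description. Its log2 level was 10.84 on the vehicle-titled and 10.84 on the DEX-titled array titled siFoxA1, against 12.09 and 12.17 on the arrays titled parental. The difference between siRNA titles was -1.25 in the vehicle-titled pair and -1.33 in the DEX-titled pair on the log2 scale, a mean level 2.45-fold lower. In replicate 1, which was not part of this group, FOXA1 was 12.65 and 12.67 on the arrays titled siFoxA1 and 13.36 on both arrays titled parental. The arrays titled parental in replicate 2 thus had less FOXA1 than the arrays titled siFoxA1 in replicate 1, by 0.53 on average on the log2 scale. The titles and the FOXA1 levels go against each other there, and which title, if any, is wrong was not tested. All directions below are therefore differences between titles, siFoxA1 minus parental, and not between known treatments.

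Genes that glucocorticoids induce differed little between the hormone titles. FKBP5, a co-chaperone of steroid receptors, differed between DEX-titled and vehicle-titled arrays by -0.07 among the siFoxA1 titles and by 0.18 among the parental titles of replicate 2. Over the 28 measured glucocorticoid-induced genes, the difference between hormone titles on all 8 arrays of the set had a median of 0.03 (from -0.57 to 0.37) and 0 passed an adjusted p under 0.05. Across all genes the same comparison called 0 of 10986 (0.0%) by limma, with 428 at an unadjusted p under 0.05. With the 4 replicate 2 arrays alone, 9 genes were called (7 higher and 2 lower on DEX-titled arrays). Each array was most like the array of the same siRNA title and replicate number with the other hormone title (Pearson r across genes 0.9897 for the siFoxA1 titles and 0.9877 for the parental titles), whereas arrays of different siRNA title in replicate 2 correlated at 0.9396 to 0.9416. The p-values below rest on the small spread between these pooled arrays, which carry different hormone titles and 1 replicate number, and not on the spread between cultures of 1 treatment. All 8 arrays of the set lie on 1 chip, on which position and title cannot be told apart.

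Some promoters of genes called higher on the arrays titled siFoxA1 hold a pair of steroid receptor half-sites, searched as GNACANNNTGTNC on both strands. The windows below show what such a site looks like in 3 promoter windows of 2 genes, which were chosen after their values were seen: FAM107A, a stress-responsive actin-binding protein with several promoters, and MAP3K6, a stress-activated kinase. They run from 250 bases before to 50 after an annotated start, on the minus strand of RefSeq's GRCh38.p14, with the matched letters in capitals.
FAM107A chr3:58586965-58587264: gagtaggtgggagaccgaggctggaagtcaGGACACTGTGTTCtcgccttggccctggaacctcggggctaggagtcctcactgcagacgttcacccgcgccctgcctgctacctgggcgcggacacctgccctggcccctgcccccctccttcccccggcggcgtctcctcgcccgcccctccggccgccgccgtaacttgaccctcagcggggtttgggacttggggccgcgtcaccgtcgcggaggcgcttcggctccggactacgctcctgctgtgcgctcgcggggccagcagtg
FAM107A chr3:58577342-58577641: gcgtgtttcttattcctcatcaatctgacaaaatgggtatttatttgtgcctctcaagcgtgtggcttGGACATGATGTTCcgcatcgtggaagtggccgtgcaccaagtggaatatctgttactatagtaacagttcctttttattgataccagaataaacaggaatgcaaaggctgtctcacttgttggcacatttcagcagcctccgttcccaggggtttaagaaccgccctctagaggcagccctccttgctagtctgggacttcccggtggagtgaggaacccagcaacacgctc
MAP3K6 chr1:27366912-27367211: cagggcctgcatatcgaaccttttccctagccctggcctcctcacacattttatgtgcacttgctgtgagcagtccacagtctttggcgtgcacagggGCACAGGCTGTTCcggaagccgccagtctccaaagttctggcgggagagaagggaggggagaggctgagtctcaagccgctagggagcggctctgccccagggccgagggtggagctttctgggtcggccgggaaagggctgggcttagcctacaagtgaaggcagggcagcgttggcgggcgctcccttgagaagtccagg
FAM107A was 7.53 and 7.23 on the arrays titled siFoxA1, against 4.64 and 5.27 on those titled parental, where it was not detected, so that its level was at least 3.10-fold higher (adjusted p = 1.16e-06). MAP3K6 was 10.29 and 10.38, against 9.21 and 9.30, a log2 difference of 1.07 (SE 0.12, adjusted p = 7.67e-07). A promoter window was found for 8911 of the 10986 genes tested. The pair of half-sites was present in 0.409% of genes called higher, 0.351% of genes called lower and 0.401% of genes not called, against 0.393% of all, and these shares were not tested against each other. The forkhead letters TGTTTAC were present in 3.34% of genes called higher and 3.63% of genes called lower, against 3.51% of all genes, and the single half-site AGAACA in 12.6% and 12.5%, against 12.8%. These windows cover only the sequence nearest the start, and a match of letters is not a measured binding site.

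Across all genes, the arrays titled siFoxA1 differed from those titled parental in 3852 of 10986 genes (35.1%) at an adjusted p under 0.05 by limma, with 1724 higher (15.7%) and 2128 lower (19.4%). The increases were the larger ones. Of the genes called, 638 were higher and 383 lower by at least 2-fold, and 92 were higher but 0 lower by at least 8-fold. The largest increase was 9.17 and the largest decrease -2.71 on the log2 scale, and the median over all genes was -0.05. The 2 arrays titled siFoxA1 lay wholly above or wholly below the 2 titled parental for 6990 genes (63.6%). Both hormone-titled pairs had the same direction for 3848 of the 3852 genes called. In all, 235 genes were detected on both arrays titled siFoxA1 and on neither titled parental, and 161 the other way round. Where a title group was not detected on either array, the fold is given as "at least", set by the dimmest detected probes of those arrays.

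The genes with the largest increases included targets of glucocorticoid signalling, immediate-early factors and a family of testis alpha-tubulins. SGK1, a serum- and glucocorticoid-induced kinase that regulates sodium channels, was 14.58 and 14.59 on the arrays titled siFoxA1, against 5.57 and 5.27 on those titled parental, where it was not detected. Its level was at least 458-fold higher. RASD1, a small GTPase known as a dexamethasone-induced Ras protein, was 13.22 and 13.28, against 5.08 and 4.68, which is at least 182-fold higher. Both genes were bright under the siFoxA1 title and at background under the parental title. Neither was detected under the parental title in replicate 1 either. Both thus entered the test only through arrays on which they were high, and their p-values are not given. FOS, the immediate-early transcription factor, was 10.91 and 11.09, against 4.62 and 4.81, at least 38.1-fold higher. CRISPLD2, a secreted protein known to be induced by glucocorticoids, was 11.26 and 11.27, against 5.07 and 5.48, at least 45.9-fold higher. FOS and CRISPLD2 were undetected under the parental title in both replicates, so they too entered the test only through arrays on which they were high. CCN2, a matricellular growth factor gene, was 11.13 and 11.08, against 5.74 and 4.58, at least 41.0-fold higher. In each of these the groups did not overlap, which the rule that named them required and which held for 63.6% of all genes.

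TIPARP, an ADP-ribosyltransferase that restrains the aryl hydrocarbon receptor, was detected on every array and rose by 6.25 (SE 0.11), with levels of 14.41 and 14.41 on the arrays titled siFoxA1 against 7.97 and 8.33 on those titled parental. S100P, a calcium-binding protein, was 11.92 and 12.05, against 5.72 and 5.94, a difference of 6.15 (SE 0.11). CITED1, a transcriptional coregulator, was 11.55 and 11.66, against 5.95 and 6.24 (5.51, SE 0.18). These 3 genes were detected under both titles and were much higher under the siFoxA1 title. Under the parental title, S100P and CITED1 lay near the dimmest detected probes (5.56 to 5.81 over the arrays of the set), so their differences are less exact. TLCD4, a membrane protein gene, was 11.73 and 11.85 on the arrays titled siFoxA1, against 4.74 and 5.77 on those titled parental (6.54, SE 0.25). Its vehicle-titled parental level lay below that range, so the size is not exact. CES4A, a carboxylesterase, was at least 25.6-fold higher, SPOCK1, a proteoglycan, at least 23.1-fold, and PHACTR3, a phosphatase and actin regulator, at least 17.8-fold. CES4A, SPOCK1 and PHACTR3 were undetected under the parental title in both replicates, so they entered the test only through arrays on which they were high. The remaining genes of the 15 largest increases were the tubulins described below.

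The largest decreases were much smaller. SDCBP2, a syntenin-like scaffold protein, was 6.09 and 5.32 on the arrays titled siFoxA1, against 8.32 and 8.50 on those titled parental (-2.71, SE 0.25, adjusted p = 6.26e-08). POLB, the DNA polymerase of base excision repair, was 10.42 and 10.22, against 12.07 and 12.28 (-1.85, SE 0.12). COLEC12, a scavenger receptor, was 7.76 and 8.14, against 9.91 and 10.00 (-2.0, SE 0.13). POLB and COLEC12 stayed well above background on the arrays titled siFoxA1, while SDCBP2 came close to it. PLAT, tissue plasminogen activator, was 4.69 and 4.98, below detection, against 7.09 and 6.87, at least 2.46-fold lower. Likewise FERMT1, an integrin activator, was at least 2.60-fold lower and LUZP2, a leucine zipper protein, at least 3.12-fold lower. HOXC9, a homeobox factor of body patterning, was 5.61 and 6.07 on the arrays titled siFoxA1, against 7.86 and 7.62 on those titled parental, and HOXA11-AS, a noncoding RNA of another homeobox cluster, was 8.66 and 8.63, against 10.69 and 10.52. MMP16, a membrane-bound matrix protease, LRRTM4 and LINGO1, leucine-rich repeat proteins of neurons, CX3CR1, a chemokine receptor, ODAM and LINC01315 made up the rest, with differences from -1.89 to -2.12. UGT2B17, an enzyme that inactivates androgens by glucuronidation, was 5.63 and 5.55, against 7.51 and 7.46 (-1.89, SE 0.14), but another of its probes differed by 0.11. Its levels under the siFoxA1 title lay near the dimmest detected probes, so the size is not exact.

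**Figure D1:**
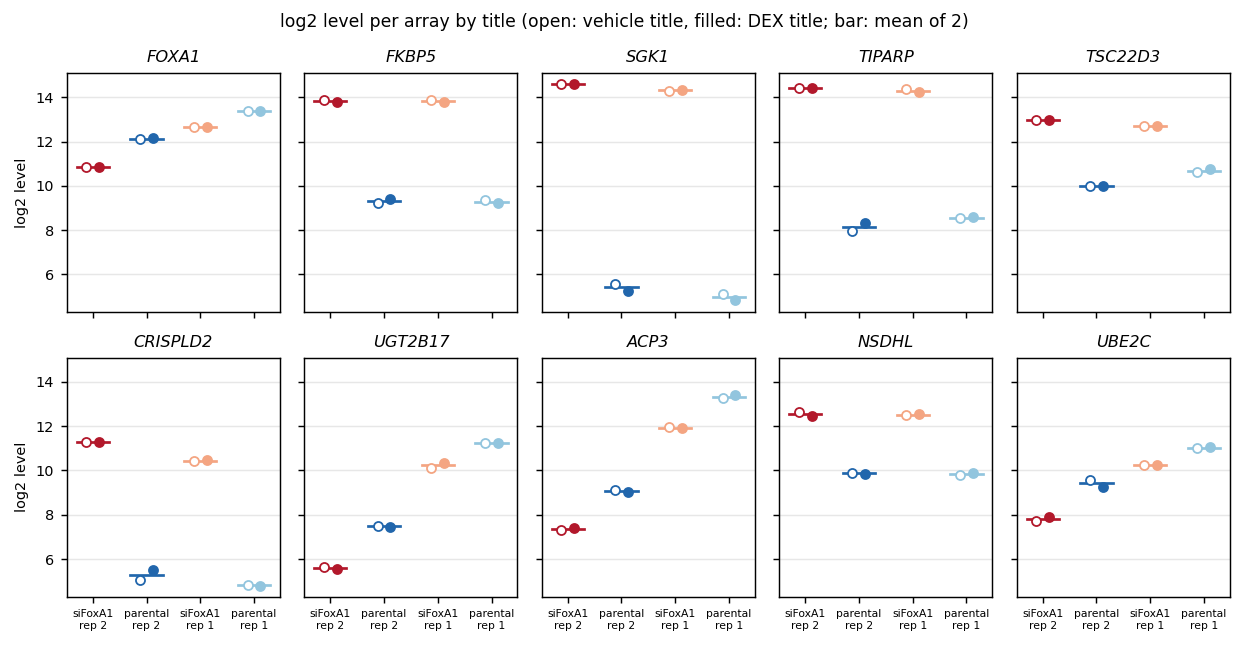
Log2 level of 10 genes on each of the 8 arrays of the DEX set, by siRNA title and replicate number on the x axis; open points are vehicle-titled arrays, filled points DEX-titled arrays and bars the mean of 2. On the replicate 2 arrays, SGK1 sat at 14.58 and 14.59 under the siFoxA1 title and at 5.57 and 5.27 under the parental title, while open and filled points of each title lay close together.

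Glucocorticoid-induced genes were mostly higher on the arrays titled siFoxA1. Of the 28 measured, 21 were called higher and 3 lower, with a median difference of 1.63, against -0.05 over all genes, 15.7% of which were called higher and 19.4% lower. FKBP5 was 13.88 and 13.81, against 9.21 and 9.39 (4.54, SE 0.10, adjusted p = 8.90e-18). DUSP1, a phosphatase that switches off MAP kinases, was 13.27 and 13.20, against 9.04 and 9.10 (4.17, SE 0.10). CEBPD, a transcription factor of the C/EBP family, was 12.43 and 12.37, against 7.43 and 7.50 (4.94, SE 0.12). For each of these the gap between titles was many times the gap between the pooled arrays. ERRFI1, a feedback inhibitor of the epidermal growth factor receptor, was 12.76 and 12.90, against 9.07 and 9.29 (3.65, SE 0.10). TSC22D3, the anti-inflammatory protein also called GILZ, was 12.95 and 12.96, against 10.01 and 9.97 (2.96, SE 0.09). PER1, a clock gene with a known glucocorticoid response, was 7.03 and 6.76, against 6.06 and 4.73 (1.50, SE 0.37, adjusted p = 0.00393); its call was lost without the DEX-titled parental array of replicate 2 (0.83, adjusted p = 0.0919). The 3 genes called lower were the metallothioneins MT2A (-1.22) and MT1X (-0.69) and the DNA damage gene GADD45A (-0.62). LCN2, ANGPTL4, AZGP1 and RGS2 were not called.

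Genes known to be induced by androgens split in both directions. Of 26 measured, 8 were called higher and 11 lower, with a median of -0.11, against 15.7% called higher and 19.4% called lower over all genes. Those called higher were FKBP5 and SGK1, which respond to both hormones, with ELL2, STEAP4, SNAI2, GNMT, EAF2 and PMEPA1. ELL2, a transcription elongation factor, was 11.38 and 11.57, against 7.43 and 7.99 (3.76, SE 0.16). SNAI2, a repressor of epithelial genes, was 9.96 and 9.95, against 6.86 and 6.97 (3.03, SE 0.16). GNMT, a glycine methyltransferase, was 8.15 and 8.03, against 5.76 and 5.56, at least 5.08-fold higher. Those called lower included prostate secretory genes. ACP3, prostatic acid phosphatase, was 7.33 and 7.39, against 9.12 and 9.02 (-1.71, SE 0.11, adjusted p = 1.42e-10). ABCC4, an export pump, was 11.27 and 11.18, against 12.16 and 12.37 (-1.04, SE 0.11), and ADAMTS1, a secreted protease, was 9.44 and 9.23, against 10.13 and 10.46 (-0.96, SE 0.14). The kallikrein proteases KLK2 (-0.72, SE 0.21) and KLK4 (-0.41, SE 0.08), the membrane protease TMPRSS2 (-0.60, SE 0.10), the kinase CAMKK2 and the cold-sensing channel TRPM8 were also called lower. SLC45A3, NDRG1, MAF, TSC22D1, RAB3B, AZGP1 and MPHOSPH9 were not called.

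Of 15 measured genes that androgens are known to repress, 9 were called lower and 1 higher, with a median of -0.79, against 19.4% called lower and 15.7% called higher over all genes. BCHE, butyrylcholinesterase, was 11.79 and 11.93 on the arrays titled siFoxA1, against 12.97 and 13.33 on those titled parental (-1.29, SE 0.11). FOLH1, which encodes prostate-specific membrane antigen, fell by 1.07 on the log2 scale (SE 0.12), and DDC, the decarboxylase of dopamine synthesis, by 1.79 (SE 0.23), with levels of 5.90 and 7.09 against 8.34 and 8.23. The gene called higher was MYBPC1, a myosin-binding protein, at least 14.5-fold higher. It was undetected under the parental title in both replicates, so it entered the test only through arrays on which it was high.

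Steroid receptors' partner factors showed 4 genes called higher and 11 lower of 22 measured (median -0.48), a count that includes FOXA1, whose level chose the arrays. Over all genes 15.7% were called higher, near the share of this list, and 19.4% lower. GATA2, a pioneer factor of prostate cells, was 10.10 and 10.31, against 11.74 and 11.33 (-1.34, SE 0.13). HOXB13, a prostate homeobox factor, differed by -0.62 (SE 0.10). In the opposite direction, GRHL2, an epithelial factor, was 10.99 and 10.92, against 8.96 and 9.18 (1.88, SE 0.13), and PIAS1, a SUMO ligase and coregulator, was 9.85 and 9.98, against 8.72 and 9.04 (1.04, SE 0.15). The chaperones of steroid receptors had 7 called higher and 1 lower of 17 (median 0.23), and outside FKBP5 the calls were modest: BAG3, a co-chaperone of HSP70, 0.58, DNAJB1, an HSP40 protein, 0.61, and FKBP4 -0.31. The call of DNAJB1 was lost with no variance trend (adjusted p = 0.0533) and without the vehicle-titled siFoxA1 array of replicate 2 (adjusted p = 0.0664). NR3C1, the gene of the human glucocorticoid receptor, was not among the genes tested.

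Enzymes of steroid metabolism moved in both directions, with 8 called higher and 4 lower of 15 measured (median 0.45), against 15.7% called higher and 19.4% called lower over all genes. SRD5A1, a 5-alpha-reductase that makes dihydrotestosterone, was 11.42 and 11.56, against 8.06 and 8.02 (3.45, SE 0.13, adjusted p = 3.28e-14). HSD17B4 (1.03, SE 0.09) and HSD17B11 (1.28, SE 0.15), dehydrogenases that act on steroids and lipids, were also called higher. The UGT2B enzymes and transporters had 3 called higher and 5 lower of 16 (median -0.24), against the same 15.7% and 19.4% over all genes. They included ABCD3, a peroxisomal transporter, at 10.66 and 10.71 against 8.22 and 8.94 (2.10, SE 0.17), and ABCG1, a sterol exporter, which fell by 1.74 on the log2 scale (SE 0.20).

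Of 27 measured sterol and fatty acid synthesis genes, 22 were called higher and 3 lower, with a median of 0.92, against 15.7% called higher and 19.4% called lower over all genes. FADS1, a desaturase of polyunsaturated fatty acids, was 13.28 and 13.20, against 10.24 and 10.26 (2.99, SE 0.10, adjusted p = 6.30e-15). NSDHL, which removes methyl groups from sterol precursors, was 12.62 and 12.46, against 9.89 and 9.86 (2.67, SE 0.10). Levels of ACAT2, which condenses acetyl-CoA at the start of the pathway, were 12.63 and 12.70, against 10.38 and 10.69 (2.13, SE 0.11). Enzymes called higher came from the head of the mevalonate pathway (HMGCS1, 0.92), the squalene step (SQLE, 1.80) and the last step to cholesterol (DHCR7, 1.84). MSMO1, another demethylating enzyme, was 12.75 and 12.89, against 10.93 and 10.76 (1.98, SE 0.10), but another of its probes differed by -0.05. The 3 genes called lower were SREBF1, the transcription factor that drives fatty acid genes (-0.82, SE 0.09), TM7SF2 (-0.35) and SCD (-0.22).

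Many cell division genes were called lower on the arrays titled siFoxA1. Of the G1/S and DNA replication genes, 0 were called higher and 22 lower of 37 (median -0.51), and of the G2/M and mitosis genes 0 were called higher and 28 lower of 44 (median -0.68), against 15.7% called higher and 19.4% called lower over all genes. The other 15 and 16 genes were not called. UBE2C, which tags mitotic proteins for destruction, was 7.70 and 7.89, against 9.58 and 9.24 (-1.61, SE 0.13, adjusted p = 8.16e-09). TYMS, thymidylate synthase, was 8.23 and 8.33, against 9.46 and 9.48 (-1.18, SE 0.12), and MCM6, a subunit of the replicative helicase, was 9.20 and 9.14, against 10.06 and 10.09 (-0.90, SE 0.11). UHRF1, which maintains DNA methylation at replication, fell by 1.50 (SE 0.18), CDK1, the mitotic kinase, by 1.06 (SE 0.14), and TOP2A, the topoisomerase that untangles chromosomes, by 1.14 (SE 0.15), all on the log2 scale. Some of those not called had values above 0, among them MKI67 (0.39, SE 0.40), KIF20A (0.35, SE 0.17) and TK1 (0.34, SE 0.14). In bulk RNA, fewer cells in cycle and less RNA per cycling cell cannot be told apart. The CDK inhibitors and D cyclins were split, with 4 called higher and 5 lower of 14: CDKN1C, an inhibitor known to respond to glucocorticoids, was 10.07 and 10.08, against 8.30 and 8.32 (1.77, SE 0.14), while CDKN3 was lower (-0.93, SE 0.13).

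**Figure D2:**
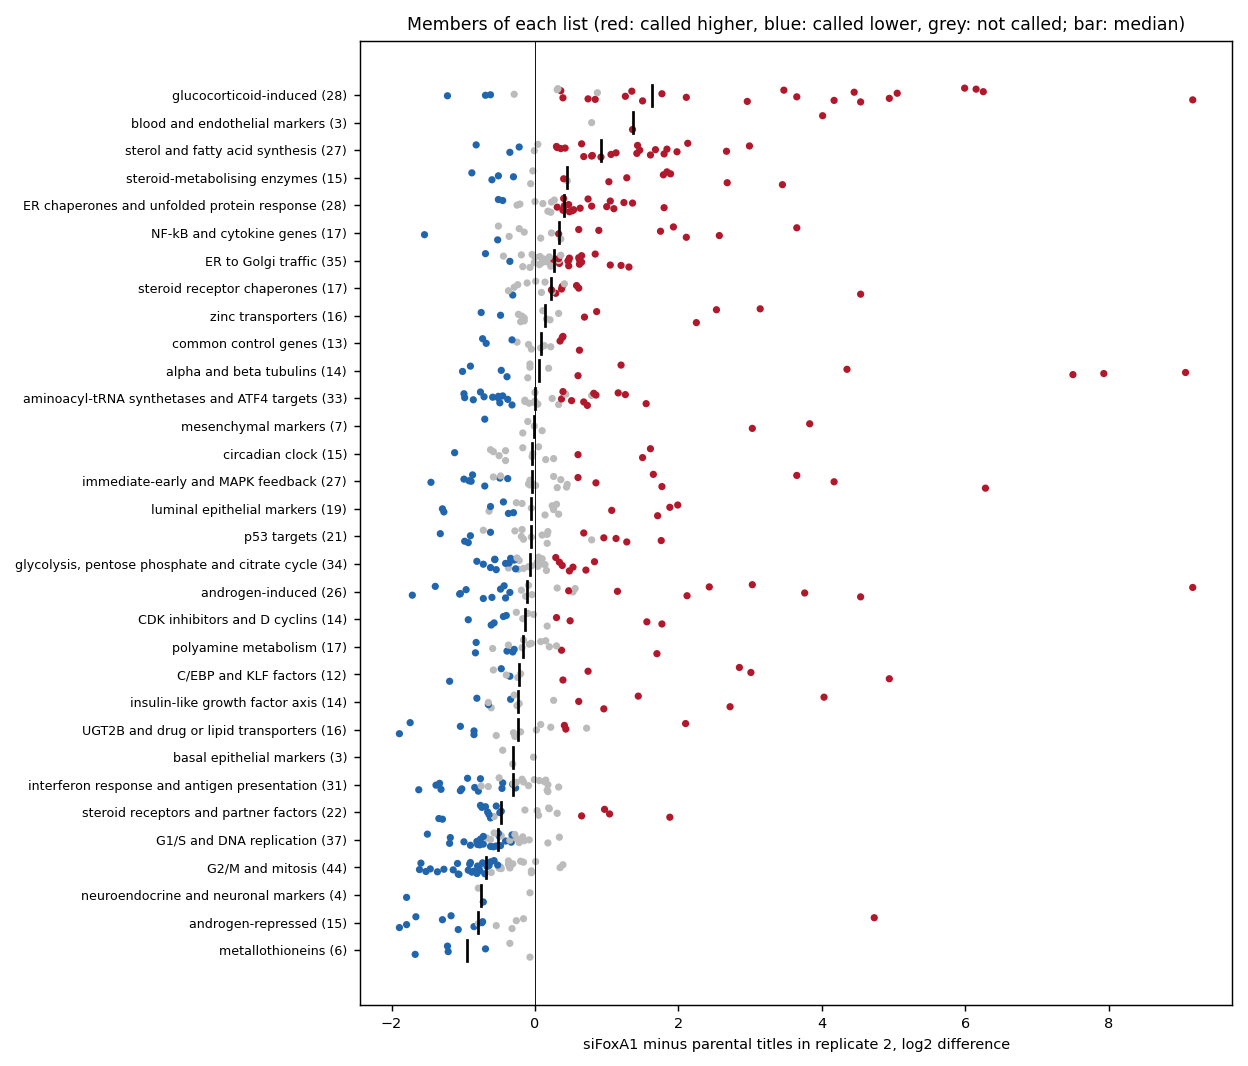
Log2 difference between the siFoxA1 and parental titles in replicate 2 for each measured member of the lists with at least 3 members; red points were called higher, blue points lower and grey points not called, and the black bar is the list's median. The glucocorticoid-induced list has a median of 1.63 and the metallothioneins have the lowest median, -0.95.

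Of 28 chaperones and unfolded protein response genes in the endoplasmic reticulum, 18 were called higher and 2 lower (median 0.40), and of 35 genes of traffic to the Golgi 16 were higher and 2 lower (median 0.26), against 15.7% called higher and 19.4% called lower over all genes. ATF6, a sensor of unfolded proteins, was 11.71 and 11.59, against 10.30 and 10.28 (1.36, SE 0.10). EIF2AK3, the sensor kinase PERK, was 9.25 and 9.16, against 7.92 and 8.0 (1.24, SE 0.15), and MANF, a secreted stress protein, was 13.47 and 13.52, against 12.78 and 12.62 (0.79, SE 0.09). HSPA5, XBP1, ATF4 and DDIT3, central genes of the same response, were not called. SEC23B and SEC13, coat proteins of transport vesicles, rose by 1.31 (SE 0.09) and 1.05 (SE 0.13), and CREB3L2, a factor that induces such coat genes, by 0.84 (SE 0.13). The aminoacyl-tRNA synthetases and ATF4 targets were split, with 10 higher and 12 lower of 33. HARS1, the histidine synthetase, was higher by 1.55 (SE 0.10), AARS1 by 0.73 (SE 0.08) and the stress gene DDIT4 by 1.26 (SE 0.09).

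Of 27 immediate-early and MAPK feedback genes, 7 were called higher and 8 lower, against 15.7% called higher and 19.4% called lower over all genes, with FOS, DUSP1 and ERRFI1 highest. Of 17 NF-kB and cytokine genes 8 were higher and 2 lower: NFKBIA, the inhibitor of NF-kB, was 13.99 and 13.76, against 11.86 and 11.66 (2.11, SE 0.10), SOCS2, a feedback inhibitor of cytokine receptors, was 11.14 and 10.91, against 9.01 and 9.17 (1.93, SE 0.14), and SOCS1 was 8.91 and 9.19, against 6.07 and 4.73 (3.65, SE 0.32). The DEX-titled parental level of SOCS1 lay below the dimmest detected probes (5.56 to 5.81 over the arrays of the set), so its size is not exact. In the insulin-like growth factor axis, 5 were higher and 3 lower of 14. FOXO1, a forkhead factor restrained by insulin signalling, was 9.94 and 9.69, against 5.53 and 6.04 (4.03, SE 0.19), with FOXO3 (1.44, SE 0.09) and IRS2, an adaptor of the insulin receptor (2.72, SE 0.19), also higher. The vehicle-titled parental level of FOXO1 also lay below that range, so its size is not exact either. Among C/EBP and KLF factors, 5 were higher and 3 lower of 12, with KLF15 at 10.20 and 10.23 against 7.37 and 7.37 (2.85, SE 0.15) and KLF6 at 10.12 and 10.29 against 7.34 and 7.04 (3.01, SE 0.15).

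Interferon response and antigen presentation genes had 0 called higher and 14 lower of 31 (median -0.31), against 15.7% called higher and 19.4% called lower over all genes, the shares against which the lists after it are also read. ISG15, a ubiquitin-like modifier, was 11.42 and 11.15, against 12.18 and 12.08 (-0.84, SE 0.10), and IFIT1 and IFIT2, which block viral RNA, differed by -1.62 (SE 0.26) and -1.31 (SE 0.27). Metallothioneins, which bind zinc and are known to be induced by glucocorticoids in many cells, had 0 called higher and 4 lower of 6 (median -0.95): MT2A was 12.33 and 12.22, against 13.56 and 13.44 (-1.22, SE 0.09), MT1F differed by -1.67 (SE 0.19) and MT1X by -0.69 (SE 0.09). Zinc transporters had 5 higher and 2 lower of 16, led by SLC39A14, an importer, at 12.72 and 12.82 against 9.55 and 9.72 (3.14, SE 0.13), then SLC39A11, another importer (2.53, SE 0.13), and SLC30A1, an exporter (2.25, SE 0.14). The p53 targets (5 higher and 5 lower of 21), with SESN1, a stress-induced inhibitor of growth signalling, at 1.76, the death receptor TNFRSF10B at 0.96 and TP53I3 at 1.28, showed no common direction. Polyamine genes had 2 higher and 5 lower of 17. ODC1, the first enzyme of the pathway, was 15.05 and 14.85, against 13.11 and 13.38 (1.70, SE 0.09). In contrast, AMD1, which makes the aminopropyl donor, was -0.83 (SE 0.12) and MTAP, another member of the list, -0.82 (SE 0.18). Of 15 clock genes 3 were higher and 1 lower, with the repressors NFIL3 at 1.61 (SE 0.16) and CRY1 at 0.60 (SE 0.14). Carbon metabolism genes had 7 higher and 11 lower of 34, with differences from -0.81 (RPIA) to 0.83 (TALDO1), both enzymes of the pentose phosphate pathway, and 0.53 for the glycolytic aldolase ALDOA.

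Alpha and beta tubulins, the subunits of microtubules, had 6 called higher and 4 lower of 14 (median 0.06), against 15.7% and 19.4% over all genes. TUBA3E was 13.60 and 13.77, against 4.67 and 4.55, at least 246-fold higher. TUBA3D was 14.53 and 14.63, against 6.44 and 6.85 (7.93, SE 0.15), and TUBA3C was 12.14 and 12.05, against 4.59 and 4.61, at least 81.6-fold higher. These 3 genes are near-identical copies that a probe may not tell apart, so which of them was transcribed is uncertain. TUBA3E and TUBA3C were undetected under the parental title in both replicates, so they entered the test only through arrays on which they were high. The abundant alpha-tubulin TUBA1B was lower (-0.39, SE 0.08), and TUBB2A, a beta-tubulin, was higher (4.35, SE 0.15).

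Markers of luminal prostate epithelium were detected under both titles. Of 22 luminal markers with a probe, 19 were detected on all 4 arrays, among them KRT8, KRT18, EPCAM, CDH1 and HOXB13. Of 15 blood and endothelial markers 1 (CD68) was detected on all 4 and 12 on none, including PTPRC, CD3D, PECAM1 and VWF. Of 9 basal markers 1 was detected on all 4, with KRT5 and KRT14 on none, of 17 neuroendocrine and neuronal markers 3, and of 22 mesenchymal markers 6. Within the luminal list, 4 were called higher and 6 lower of 19 tested, against 15.7% and 19.4% over all genes: KRT8, a luminal keratin, was 13.29 and 13.14, against 11.54 and 11.47 (1.71, SE 0.09), and DSP, a desmosome plaque protein, was higher by 1.99 (SE 0.12), while ELF3, an epithelial factor, fell by 1.29 (SE 0.13) on the log2 scale. In the mesenchymal list, 2 markers were called higher, SNAI2 and ACTA2, smooth muscle actin, at 10.91 and 11.17 against 7.19 and 7.24 (3.83, SE 0.13), and S100A4 was called lower (-0.70, SE 0.27, adjusted p = 0.0456), with another probe at 0.07 and an adjusted p of 0.0575 from the replicate 2 arrays alone. CD68, a lysosomal protein, was 10.58 and 10.52, against 9.11 and 9.26. The log2 of the summed levels of the 3 tested blood and endothelial markers was 11.00 and 10.96, against 9.29 and 9.41. Of these, HBB and HBA2 were detected on both arrays titled siFoxA1 and on neither titled parental. The part of such markers in the other differences was not tested. The basal markers KRT15, ITGA6 and LAMB3 were not called, nor was NTS, a neuropeptide gene, while ENO2, neuronal enolase, was lower (-0.72, SE 0.13). Common control genes had 4 higher and 3 lower of 13, with ACTB at 0.62, YWHAZ at 0.35 (another probe at -0.04) and the ribosomal protein gene RPL13A at -0.73, and GAPDH not called (-0.05, SE 0.09).

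**Figure D3:**
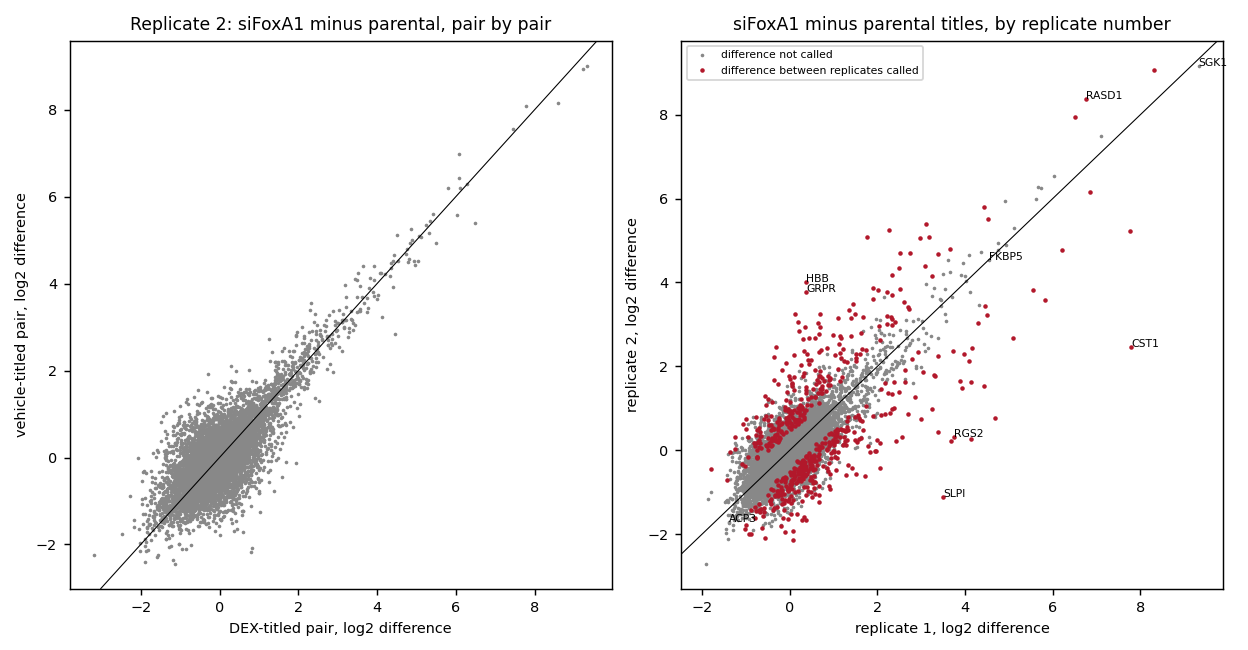
Left, for each gene, the siFoxA1 minus parental log2 difference in the vehicle-titled pair (y axis) against the DEX-titled pair (x axis) of replicate 2. Right, the same difference pooled over hormone titles in replicate 2 (y axis) against replicate 1 (x axis), with the 588 genes whose difference itself differed between replicates in red; the line marks equality. Some large increases, such as SGK1 and FKBP5, lie near the line in both panels. On the right, SLPI, CST1 and RGS2 lie far below the line and HBB and GRPR far above it.

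The same titles were compared in replicate 1, whose 4 arrays share none with replicate 2. There 3484 of 10986 genes (31.7%) were called, 1606 higher (14.6%) and 1878 lower (17.1%). In all, 2302 genes were called in both replicates, 2256 in the same direction and 46 in opposite directions. Genes called in the same direction in both made up 58.6% of those called in replicate 2 and 64.8% of those called in replicate 1. Across genes, which are not independent, the differences correlated at a Pearson r of 0.771 and a Spearman rho of 0.644. Of the 1550 genes called in replicate 2 but not in replicate 1, 203 also passed the test of the difference between the replicates, so for most of them a difference between replicates was not shown. The test of the difference itself called 588 genes (5.35%): 266 with a higher value in replicate 2 (2.42%) and 322 with a lower one (2.93%). That count was 249 with no variance trend, and without 1 array it ranged from 337 (DEX-titled siFoxA1, replicate 1) to 703 (vehicle-titled parental, replicate 2). It was 354, 358 and 356 without the DEX-titled parental array of replicate 1 and the vehicle-titled siFoxA1 arrays of replicates 1 and 2. By size and sign, 230 had the same sign and a larger change in replicate 2, 123 the same sign and a smaller change, and 235 opposite signs.

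Some strongly changed genes had similar values in both replicates. FKBP5 was higher by 4.54 in replicate 2 and by 4.56 in replicate 1 (difference -0.01, SE 0.14), and NSDHL by 2.67 and 2.68. SGK1, undetected under the parental title in both replicates, was at least 458-fold higher in replicate 2 and at least 411-fold higher in replicate 1. Of the 28 glucocorticoid-induced genes, 21 were called higher in replicate 2 and 23 in replicate 1, against 15.7% and 14.6% of all genes. By the test of the difference, 3 had a higher and 6 a lower value in replicate 2, against 2.42% and 2.93% of all genes. TSC22D3 was among those with a larger change in replicate 2 (2.96, against 2.04 in replicate 1, adjusted p = 0.00017), and S100P among those with a smaller one (6.15, against 6.86, adjusted p = 0.0113).

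Among androgen-induced genes, every called difference between the replicates ran the same way. The value was lower in replicate 2 for 11 of 26 genes and higher for 0, against 2.93% and 2.42% of all genes, and the list's median was -0.11 in replicate 2 and 0.76 in replicate 1. The 11 genes were LRIG1, AZGP1, GNMT, ABCC4, TPD52, SNAI2, KLK2, TSC22D1, PMEPA1, CENPN and TMPRSS2. LRIG1, a brake on growth factor receptors, was -0.43 in replicate 2 and 2.06 in replicate 1 (difference -2.49, adjusted p = 6.01e-09). ABCC4 was -1.04 and 0.59, called in opposite directions (difference -1.62, SE 0.16, adjusted p = 2.10e-06). KLK2 was -0.72 and 0.50 (difference -1.22, adjusted p = 0.0183), and SNAI2 was higher in both replicates but less so in replicate 2. GNMT was also called higher in both, but its rise in replicate 2 is a lower bound, which does not rank its rises. FKBP5 and SGK1 were not among the 11 genes. For tubulins the direction was the opposite one, with 4 of 14 higher in replicate 2 and 0 lower, and for sterol and fatty acid synthesis genes 4 of 27 were higher and 0 lower.

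**Figure D4:**
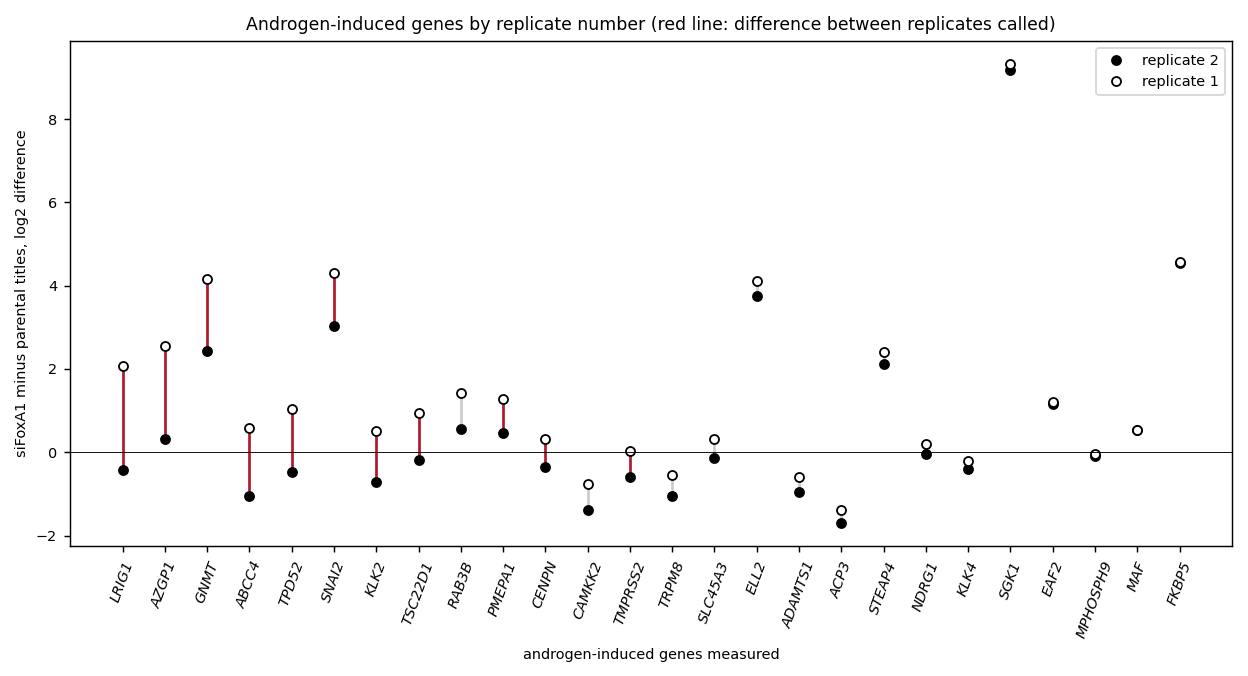
Log2 difference between the siFoxA1 and parental titles (y axis) for each of the 26 measured androgen-induced genes (x axis), in replicate 2 (filled) and replicate 1 (open), ordered by the difference between the replicates; red lines mark the 11 genes for which that difference was called. All 11 have the lower value in replicate 2.

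The 6 genes with the highest fitted difference between replicates were not detected under the parental title in replicate 2, so only bounds can be given for their rise there. HBB, a beta-globin gene, was 8.84 and 8.78 on the siFoxA1 arrays of replicate 2, against 4.76 and 4.84 on the parental ones, and was undetected under both titles in replicate 1. It was at least 8.35-fold higher in replicate 2. GRPR, the receptor of gastrin-releasing peptide, was 8.70 and 8.80, against 4.63 and 5.30, at least 8.02-fold higher in replicate 2. In replicate 1 it was 5.41 and 5.85, against 5.51 and 5.00, where the bound is 1.01-fold. PGF, placental growth factor, was 10.00 and 9.78, against 4.91 and 4.70, at least 17.7-fold higher, and at least 2.08-fold higher in replicate 1. The siFoxA1 arrays of replicate 2 had the highest level of these genes among the 8 arrays, but lower bounds in both replicates do not rank the rises of PGF and GRPR. RP1L1, a photoreceptor gene, was at least 4.32-fold, SBSPON, an extracellular matrix protein, at least 18.0-fold, and KRT16, a stress keratin, at least 4.10-fold higher in replicate 2. HBB, RP1L1 and KRT16 were detected only on the siFoxA1 arrays of replicate 2, so they entered the test only through the arrays on which they were high, and their p-values are not given. GRPR, PGF and SBSPON were undetected under the parental title in both replicates, so they entered the test only through arrays titled siFoxA1.

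In the other direction, CST1, a cystatin that inhibits cysteine proteases, was 6.82 and 7.13 on the siFoxA1 arrays of replicate 2, against 4.52 and 4.52 on the parental ones. In replicate 1 it was 12.15 and 12.24, against 4.39 and 4.42. The rise was thus at least 2.35-fold in replicate 2 and at least 95.2-fold in replicate 1. The fitted difference of -5.33 (SE 0.30) is not an exact size because the parental arrays are at background. CST1 was detected only under the siFoxA1 title, through which it entered the test, so its p-value is not given. SLPI, a secreted protease inhibitor, was 10.24 and 10.38, against 11.38 and 11.47, in replicate 2, and 8.48 and 8.16, against 4.89 and 4.77, in replicate 1. It was thus called lower in replicate 2 (-1.12, SE 0.15) and higher in replicate 1 (difference -4.61, SE 0.21, adjusted p = 7.76e-11). RGS2, a brake on G protein signalling, was 9.51 and 8.80, against 8.99 and 8.67, in replicate 2, where it was not called, and 10.16 and 10.00, against 6.21 and 6.46, in replicate 1 (difference -3.42, SE 0.28). For SLPI and RGS2, the parental arrays of replicate 2 were far above those of replicate 1. KRT73 and KRT72, keratins of the hair root sheath, and ARG1, arginase, were undetected on all 4 arrays of replicate 2 and were detected on the siFoxA1 arrays of replicate 1, where they were at least 12.8-fold, 8.17-fold and 6.14-fold higher.

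**Figure D5:**
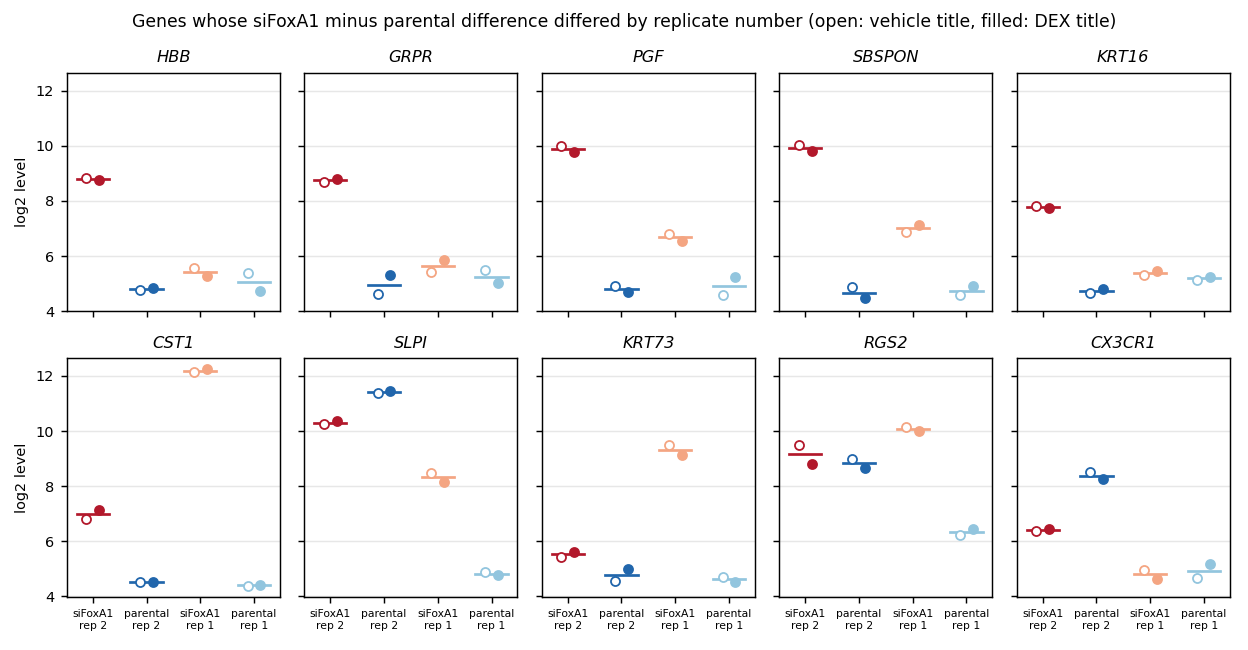
Log2 level on each of the 8 arrays of the DEX set for 10 genes whose siFoxA1 minus parental difference differed between replicates; x axis and symbols give siRNA title, replicate number and hormone title as named on the axis and in the title. HBB was detected only on the siFoxA1 arrays of replicate 2, and SLPI was lower than parental in replicate 2 and higher in replicate 1.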

How the data were processed

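The authors deposited BeadStudio scanner output, which per the file headers gives each probe's average bead intensity without background subtraction or normalization. The deposited files pair every signal with a detection p-value, and 273 of 377848 of these, written with a shifted separator, were read as 1. The authors also deposited a background-subtracted intensity table (29.2% of its values below 0), used as an alternative; its rows were joined to the scanner rows by rank on the 8 arrays (47231 of 47231, the next nearest row at least 19.1 times as far). Gene symbols came from the platform's probe annotation (30113 probes with 1 symbol, 8 with several, 17110 with none). Probe positions were not analysed here.

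Signals of the 8 DEX-set arrays were corrected and quantile normalized with limma 3.58.1 in R 4.3.3 (neqc, offset 16, negative controls inferred from the detection p). A probe was kept if its detection p was below 0.01 on 2 or more arrays (18391 probes), each gene took its brightest probe with 1 symbol, and 10986 genes were tested. The model had 4 means (siRNA title by replicate number), a variance trend and 4 residual degrees of freedom, and its two-sided p-values received the Benjamini-Hochberg adjustment across the 10986 genes, with a call at 0.05. SEs and differences are on the log2 scale, and pairs of levels are the vehicle-titled array, then the DEX-titled one. Detection on the 4 arrays ranged from 33.7% to 36.0% of probes and the mean signal from 597.4 to 651.0; the small number of arrays limits the precision. Tested on simulated data for the replicate 2 comparison over 10986 genes, 71 of 100 changes of 1 and 99 of 100 changes of 3 (log2) were called, with 6 unchanged genes called.

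The arrays, the pooling of hormone titles, the gene lists and the rules were chosen with earlier results of these data known. Genes named by rule were FOXA1, the 15 largest called increases and decreases without overlap, the 6 largest called differences between replicates each way, and the 3 members of each list with the largest moderated statistic (8 for glucocorticoid-induced and androgen-induced genes); Y-linked genes were left out, and other named genes were chosen after their values were seen. Alternatives were an offset of 50, no background correction, median scaling, the authors' values, 2 other detection filters, the mean of a gene's probes, no variance trend, hormone title as a term, replicate 2 arrays alone, each array left out, and both replicates with a replicate block.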

Additional observations from a re-analysis of the deposited data

Results flagged for a closer look

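A difference between the siFoxA1 and parental titles that itself differed between replicate 2 and replicate 1, by limma's test of that difference at an adjusted p under 0.05, was found for 45 of the named genes, with 19 higher and 26 lower values in replicate 2. FOXA1, also a named gene, is left out of this count because its level chose the arrays. Of these 45 genes, 12 were named because they passed this test, and others for their large differences in replicate 2. Some entered the test only through arrays on which they were high, as given below. The count is therefore not to be read against the share over all genes. Across all genes tested, 588 (5.35%) met the same test, a count that was 249 with no variance trend and 337 to 703 with 1 array left out. The values below are the siFoxA1 minus parental difference in replicate 2 minus that in replicate 1, on the log2 scale, and no explanation of them was tested.

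Fitted values of genes that were not detected under a title are set against background, so their sizes are not exact and their order is not a rank. The 6 genes with the highest fitted values were HBB (3.63), GRPR (3.41), PGF (3.32), RP1L1 (3.13), SBSPON (2.98) and KRT16 (2.87). All 6 were undetected under the parental title in replicate 2, and HBB, RP1L1 and KRT16 were detected only on the siFoxA1 arrays of replicate 2, so these 3 entered the test only through the arrays on which they were high. GRPR, PGF and SBSPON were undetected under the parental title in replicate 1 too, so they entered the test only through arrays titled siFoxA1. The 6 genes with the lowest fitted values were CST1 (-5.33), SLPI (-4.61), KRT73 (-3.91), KRT72 (-3.86), ARG1 (-3.46) and RGS2 (-3.42). KRT73, KRT72 and ARG1 were detected only on the siFoxA1 arrays of replicate 1. CST1 was undetected under the parental title in both replicates, and SLPI under it in replicate 1.

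Among the genes with the largest increases in replicate 2, the value was higher there for SPOCK1 (2.28), RASD1 (1.60), TUBA3D (1.42), CES4A (1.37), CITED1 (0.98) and TUBA3E (0.77), and lower for S100P (-0.71). CITED1 was undetected under the parental title in replicate 1. SPOCK1, RASD1, CES4A and TUBA3E were undetected under that title in both replicates. These genes thus entered the test only through arrays on which they were high, and lower bounds do not rank their rises. Among the genes with the largest decreases, all that differed had a lower value in replicate 2: PLAT (-2.23), LINGO1 (-2.01), CX3CR1 (-1.84), LUZP2 (-1.62), ODAM (-1.53), POLB (-1.21), MMP16 (-1.11), COLEC12 (-1.06) and UGT2B17 (-0.88). LINGO1, CX3CR1, LUZP2 and ODAM were undetected under both titles in replicate 1, so no fall could be measured there. PLAT and LUZP2 were detected only under the parental title. Both groups of genes were chosen for extreme differences in replicate 2, which by itself favours a larger change there than in replicate 1.

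Among members of the gene lists, a higher value in replicate 2 was found for SESN1 (1.08), KLF6 (0.80), ATF6 (0.72), DDIT4 (0.69), FADS1 (0.64), TALDO1 (0.54) and MANF (0.47). A lower value was found for GNMT (-1.73), ACTA2 (-1.72), ABCC4 (-1.62), TP53I3 (-1.58), CDKN1C (-1.54), SNAI2 (-1.27), CREB3L2 (-1.24), SLC30A1 (-1.13), CD68 (-0.87) and UBE2C (-0.82).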

How the results depend on the processing

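The replicate 2 comparison called 3852 genes, and 3235 to 3888 under the other processing choices that kept all 8 arrays (background offset, none, median scaling, the authors' values, mean of probes, no variance trend, no or a stricter detection filter, hormone title as a term). With replicate 2 arrays alone it called 3314, and 2916 to 3689 with 1 array left out. Members of the lists called numbered 351, and 277 to 371 over the alternatives. The replicate numbers pair the arrays by construction, since each difference is within 1 number; both replicates together with a replicate block called 4383 genes (1904 higher and 2479 lower). Under that block SLPI had the opposite sign (1.19, adjusted p = 0.147), and ABCC4 was no longer called (-0.22, adjusted p = 0.477). The block fit averages the differences of the replicates, which had opposite signs for both genes. In replicates 2 and 1, SLPI differed by -1.12 and 3.49, and ABCC4 by -1.04 and 0.59. Why the replicates differed was not tested. Of the 129 named genes, 116 kept their result in replicate 2 under every alternative in which they were tested and 13 did not. The result is a call or its absence, except for FOXA1, whose value moved from -1.29 to -1.0 with the replicate block. With probes detected on all 8 arrays, 83 of the 129 were tested. KRT73, S100A4, YWHAZ, DNAJB1 and PER1 each lost their call under at least 1 alternative. The 12 genes named for the difference between replicates kept that call in each alternative in which they were tested. The count of genes called for the difference between replicates, 588 (266 higher and 322 lower), was the least stable: it was 249 (115 and 134) with no variance trend. It was 337 to 703 with 1 array left out (154 to 303 higher, 183 to 400 lower), with 354 without the DEX-titled parental array of replicate 1, 337 without the DEX-titled siFoxA1 array of replicate 1, 358 without the vehicle-titled siFoxA1 array of replicate 1 and 356 without the vehicle-titled siFoxA1 array of replicate 2. Replicate 1 called 3484 genes, and 2301 to 3831 with 1 array left out (1202 to 1734 higher, 1088 to 2100 lower). Its total was lowest, 2301, without its DEX-titled parental array, and its count of lower genes was 1088, 1170, 1223 and 1196 without its DEX-titled parental, DEX-titled siFoxA1, vehicle-titled parental and vehicle-titled siFoxA1 array. The hormone titles called 0 genes on 8 arrays and 9 on the replicate 2 arrays alone. Leaving out an array leaves 1 array under a title, which is then assumed to vary like the others. Probes near background limit the fold of undetected genes to a bound.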
